A study of Mus musculus with 7 samples.

Results

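Protein phosphatase genes were followed in the mouse uterus through 1 day after a single injection of dihydrotestosterone (DHT), a potent androgen. The members are all probe sets of the array that name a single gene whose symbol begins with Dusp, Ptpn, Ptpr, Ptp4a, Ppm1, Cdc25, or Ppp followed by a digit from 1 to 6. The rule used symbols and no measured value. It found 110 probe sets of 81 genes among 12422 probe sets that are not controls, and these name 8251 genes. By symbol, 9 genes belong to the Dusp class, 35 to the tyrosine class (Ptpn, Ptpr and Ptp4a), 35 to the serine/threonine class (Ppm1 and Ppp) and 2 to the Cdc25 class. The symbol rule also takes in Ptprcap, which encodes a partner of CD45 and no phosphatase, and 21 genes for regulatory or scaffold subunits of serine/threonine phosphatases, among them inhibitors.

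The tissue was whole uterus of C57BL/6 females aged 10 to 11 weeks that had been ovariectomized 7 days before death, so all groups, vehicle included, lacked ovaries. DHT at 0.1 mg per mouse was given under the skin 1, 3, 6, 12, 18 or 24 h before death, and the controls received vehicle 24 h before death. RNA was pooled and each group gave 1 array, 7 in all, and the protocols name 10 mice without saying how many went into each pool. The array titled 0 h is therefore matched in time only to the 24 h DHT array, and from 1 to 18 h an effect of DHT cannot be told apart from one of the injection. The array titles, which were followed here, name 18 h, where the series' design text names 0.5 h instead.

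Protein phosphatases remove phosphate groups that kinases have added. Dusp proteins remove phosphate from both tyrosine and threonine, and several of them switch off the MAP kinases ERK, JNK and p38, often as products of genes that those kinases induce. Ptpn and Ptpr proteins act on phosphotyrosine in the cytoplasm or as membrane receptors, Cdc25 proteins activate cyclin-dependent kinases, and the Ppp enzymes (PP1, PP2A, calcineurin and their relatives) act on serine and threonine with partners that choose the substrate. In smooth muscle, the main tissue of the uterine wall, PP1 bound to a myosin-targeting subunit relaxes the muscle by removing phosphate from myosin light chain.

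Values are MAS5 signals on a linear scale. For ratios, signals below 145.9, the 40th percentile of all values (here the floor), were raised to it and log2 was taken. A gene is represented by its brightest probe set. Of the 110 member probe sets, 73 (66.4%) had a signal above the floor on at least 1 array and went into the tests, against 67.8% of all probe sets. They represent 69 genes, of which 55 were above the floor on all 7 arrays. The 12 genes at or below the floor on every array were Dusp8, Dusp9, Ppp1r12c, Ppp1r1a, Ppp1r3c, Ptpn11, Ptpn20, Ptprb, Ptprc, Ptprj, Ptprn2 and Ptprz1. A further 14 genes passed with some arrays at the floor. Their ratio is a bound where 1 of the arrays compared is at the floor, and says nothing where both are: 7 in the tyrosine class (Ptpn12, Ptpn2, Ptpn5, Ptpn6, Ptprg, Ptpro and Ptprv) and 7 in the serine/threonine class (Ppp1r17, Ppp2ca, Ppp2r1b, Ppp2r2a, Ppp2r5d, Ppp3cb and Ppp3cc). A gene that passed through a few arrays only had to differ between arrays, so the counts below describe the genes that passed and not all members.

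The arrays were alike in overall signal, with medians between 227.4 and 237.0. The ratio of 3 prime to 5 prime signal lay between 1.03 and 1.19 for beta-actin and between 0.828 and 0.888 for Gapdh. Smooth muscle markers were present (9 of 9 on the array passed), and their summed signal was 42718 on vehicle, 39014 to 41023 on the early DHT arrays and 50693 to 67014 on the late ones, higher late than early for 9 of 9 genes. The summed signal of the 13 leukocyte markers that passed was 16691 on vehicle, 14558 to 15955 early and 11481 to 13073 late, lower late for 11 of 13, and Cd3e, Cd3g, Cd79b and Fcer1g were at the floor. Epithelial (11 of 11 passed) and endothelial (10 of 10 passed) markers were present, with summed signals of 13263 to 15965 and 6321 to 7066 over all arrays. The remaining marker lists had late-minus-early medians of 0.24 (stromal, 7 genes), -0.36 (adipocyte, 6), -0.35 (nerve and glia, 2) and 0.12 (skeletal muscle, 4). The stromal summed signal was 45707 on vehicle, 45483 to 48312 early and 52422 to 70073 late, higher late for 5 genes and lower for 2. In bulk RNA, fewer cells of a type and less RNA per cell cannot be told apart.

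With 1 array a group, single times are described and not tested. A gene was counted as different from vehicle when it was at least 2-fold apart and its higher signal was at least 291.8. Among the 69 phosphatase genes this held at 1 h for 1 gene, Ppp2r5d, which was lower (of all 6326 genes on the array, 0.474% were higher, 0.506% lower and 0.98% either). On the 3 h array it held for 2, Dusp1 higher and Ppp2r5d lower (1.23% higher, 0.759% lower and 1.99% either). Ppp1r14b was the gene counted at 6 h (1.28% higher, 1.14% lower and 2.42% either) and again at 12 h (1.83% higher, 1.2% lower and 3.04% either), higher both times. On the 18 h array 2 genes were counted, Cdc25c higher and Ppp2r5d lower (1.31% higher, 1.03% lower and 2.34% either). At 24 h there were 0 (0.933% higher, 0.822% lower and 1.75% either). With so few genes the counts are near the shares of the whole array. The 6 comparisons share the lone vehicle array.

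For a test, the times were pooled by phase. Early means 1, 3 and 6 h, late means 12, 18 and 24 h, and limma compared these sets of 3 arrays over all 8421 probe sets that passed. No phosphatase probe set passed at an adjusted p of 0.05 in late minus early (0 of 73, against 0.0% of all), early minus vehicle (0 of 73, against 0.273% of all) or late minus vehicle (0 of 73, against 0.309% of all). At an unadjusted p under 0.05 late minus early had 10 of 73, 4 higher and 6 lower (10.2% of all probe sets, 5.76% higher and 4.49% lower). Early minus vehicle had 2 of 73, Dusp1 higher and Ppp2r5d lower (6.33% of all, 2.49% higher and 3.84% lower). Late minus vehicle had 6 of 73, 3 in each direction (11.7% of all, 5.53% higher and 6.19% lower). No change reported below is therefore a call, and p-values are given to show where the members lie. The spread comes from arrays of different times, so p-values do not measure variation between animals.

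**Figure D1:**
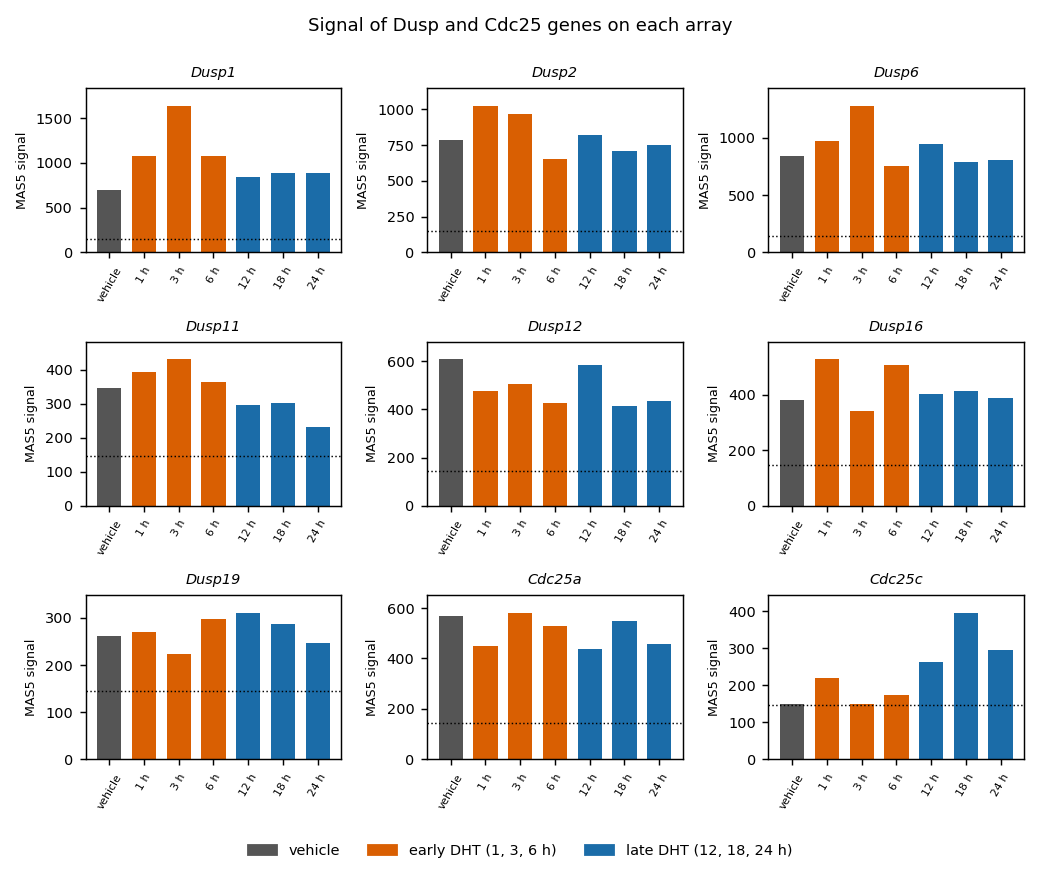
MAS5 signal (vertical axis, linear from 0) of the 7 Dusp and 2 Cdc25 genes that passed, 1 bar for each array in time order; the dotted line is the floor of 145.9. Dusp1 is highest at 3 h (1639) and Cdc25c at 18 h (396).

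Dusp1, which encodes a nuclear phosphatase of ERK, JNK and p38 and is a classical immediate early gene, had signals of 702 on vehicle, 1073, 1639 and 1081 on the early arrays and 843, 883 and 888 on the late ones, each in time order as in all sentences that follow. All 6 DHT arrays lay above vehicle, and the 3 early arrays lay above the 3 late ones without overlap. Its log2 ratio to vehicle was 0.61, 1.22 and 0.62 early and 0.26, 0.33 and 0.34 late. The early mean lay 0.82 ± 0.26 SE above vehicle (limma adjusted p = 0.662, unadjusted p = 0.0197), and the late mean lay below the early mean (difference -0.51 ± 0.18 SE, limma adjusted p = 0.433, and -0.31 without the 3 h array). At 24 h, the only time with a matched vehicle, the excess was 1.27-fold.

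The promoter of Dusp1 is shown because the gene stands apart among the Dusp members and its start region holds the cAMP response element, a site for CREB family factors that many immediate early genes carry. In RefSeq (GRCm38.p6, minus strand, chr17:26508423-26508722) the window from 250 bases before to 50 after the start reads as below, 5′ to 3′, with the element TGACGTCA and a further match to its core TGACG in capitals.
Dusp1: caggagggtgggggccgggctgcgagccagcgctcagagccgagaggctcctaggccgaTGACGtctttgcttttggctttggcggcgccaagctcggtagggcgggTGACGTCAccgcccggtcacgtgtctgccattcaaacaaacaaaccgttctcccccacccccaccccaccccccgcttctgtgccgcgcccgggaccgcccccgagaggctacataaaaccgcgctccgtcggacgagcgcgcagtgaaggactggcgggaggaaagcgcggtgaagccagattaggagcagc
The full element starts 143 bases before the start site.

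Of the 81 member genes, 63 matched the promoter table, with 85 start sites. The element TGACGTCA, which reads the same on both strands, was found in 9 of these 85 promoters (10.6%), against 1.79% of all 32851 promoters of this length. It was in Dusp1, Dusp8, Ppm1a, Ppp1r12c, Ppp1r15a, Ppp2ca, Ptpn11, Ptprs and Ptpru. The windows around it in the 6 of these genes that passed are set side by side to show that a shared element came with different courses, with the element in capitals.
Dusp1: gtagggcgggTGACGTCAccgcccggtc
Ppm1a: cgcagggcagTGACGTCAccgccgcccc
Ptprs: gcggaaggggTGACGTCAccggctgggg
Ptpru: cccgggggccTGACGTCAgcgccccgct
Ppp2ca: gacgctggcgTGACGTCAccacgccggg
Ppp1r15a: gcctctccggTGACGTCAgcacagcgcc
At 1 and 3 h the log2 ratios to vehicle were 0.61 and 1.22 for Dusp1, 0.60 and 0.19 for Ppm1a, 0.05 and -0.07 for Ptprs, -0.05 and 0.01 for Ptpru and -0.30 and -0.05 for Ppp1r15a, while Ppp2ca was at the floor on both. A match describes letters and is no evidence that a factor bound there. The shares of member promoters and of all promoters were compared without matching for base composition. The core TGACG, searched on both strands and including the full element, was in 35 of the 85 promoters (41.2%, against 20.8% of all). The CArG box was in 3 (3.53%, against 1.63%), TTTGAA of the cell cycle homology region in 5 (5.88%, against 17.9%), and the full androgen response element in 0 (0.00913% of all), which says only that these letters are not in this window.

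Dusp6, which encodes a cytoplasmic phosphatase that acts on ERK, had signals of 843 on vehicle, 973, 1279.8 and 755 early, and 948, 789 and 806 late. Only the 3 h array stood out from the others, at a log2 ratio of 0.60, and 3 of the 6 DHT arrays lay below vehicle. The second Dusp6 probe set was below the floor on all arrays (2.2 to 31.5). Dusp2, which encodes a nuclear phosphatase known from activated immune cells, had 788 on vehicle, 1025, 968 and 653 early, and 818, 707 and 748 late. Its 2 highest arrays were those at 1 and 3 h, and the other 4 DHT arrays lay within 0.27 of vehicle on the log2 scale. The late-minus-early differences of Dusp6 (-0.21 ± 0.21 SE) and Dusp2 (-0.19 ± 0.19 SE) were as large as their errors (limma adjusted p = 0.757 and 0.761). Without the 3 h array they were -0.02 and -0.11, without the 6 h array -0.40 for both, and without the 1 h array that of Dusp2 was -0.07.

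Dusp11, whose product acts on the 5 prime phosphates of RNA, had 346 on vehicle, 393, 432 and 363 early, and 298, 302 and 232 late. Its early arrays all lay above vehicle and its late arrays all below it, with a late-minus-early difference of -0.52 ± 0.15 SE (limma adjusted p = 0.365). With the floor at the 60th percentile, which lay above its late signals, the difference was -0.14, a bound. Dusp11 is the Dusp gene with the lowest p in that contrast. Dusp16, which encodes a JNK phosphatase, had 383 on vehicle, 528, 341 and 509 early, and 402, 415 and 389 late. Its 1 and 6 h arrays were high and its 3 h array was the lowest, so the early arrays enclosed all others. The second Dusp16 probe set was below the floor on all arrays (3.5 to 43.1). Dusp12 had 608 on vehicle and lay below that on all 6 DHT arrays, from 414 at 18 h to 583 at 12 h. Dusp19 ranged from 224 at 3 h to 311 at 12 h around a vehicle signal of 262.

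Cdc25c, which encodes the phosphatase that activates Cdk1 at the entry into mitosis, had signals of 149 on vehicle, 220.4, 150.2 and 173 early, and 263, 396 and 296 late. Vehicle and the 3 h array lay just above the floor, and all 3 late arrays lay above all 3 early ones. The late-minus-early difference was 0.81 ± 0.21 SE (limma adjusted p = 0.327) and the late-minus-vehicle difference 1.07 ± 0.30 SE (limma adjusted p = 0.291). With the floor at the 60th percentile, which lay above most of its signals, late minus early was 0.05. That value was set largely by the floor. The second Cdc25c probe set was below the floor throughout, with 14.9 on vehicle, 46.1, 14.8 and 7.9 early, and 81.9, 116.1 and 115.0 late. Cdc25a, whose product acts on Cdk2 at the start of DNA synthesis, had 568 on vehicle and 438 to 581 on the DHT arrays, with no order by phase (late minus early -0.11 ± 0.15 SE, limma adjusted p = 0.829). The second Cdc25a probe set was below the floor on all arrays (13.1 to 26.1).

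Genes that work with Cdc25 were taken from a list. Of 17 listed cyclins, kinases and partners, 13 passed, and 11 of these were higher late than early by their means, while 0 passed in either direction in limma in any of the 3 contrasts. The median of the list was 0.50 for late minus early, against 0.00 for all genes. At 18 h Cdk1, the substrate of Cdc25c, had a log2 ratio of 1.28, and its cyclin partners Ccnb2 and Ccna2 had 1.25 and 1.09. Wee1, the kinase that opposes Cdc25 on Cdk1, was at the floor on vehicle and lay above it at all 6 times, with bounds of 0.57 to 1.01. Chek1, which restrains Cdc25, had -0.07, -0.60 (a bound), 0.29, 0.77, 0.52 and 0.01 in time order.

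**Figure D2:**
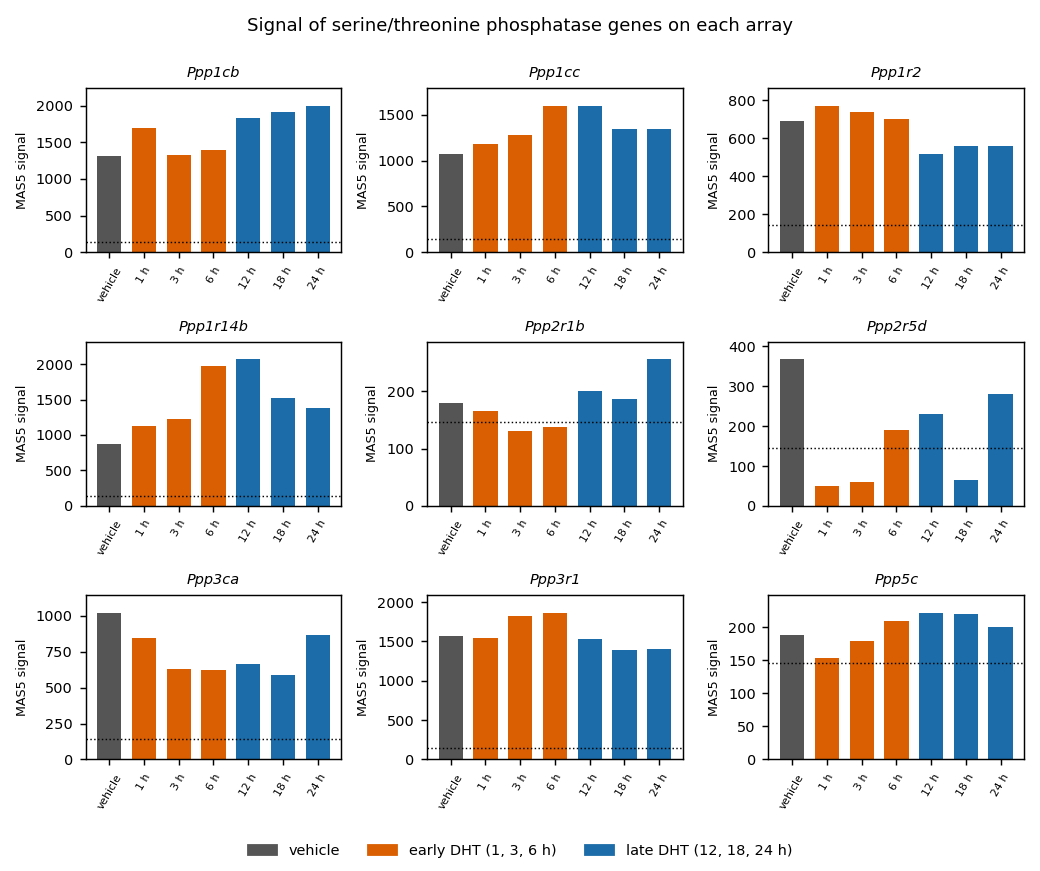
MAS5 signal (vertical axis, linear from 0) of 9 serine/threonine phosphatase genes, 1 bar for each array in time order; the dotted line is the floor of 145.9. Ppp1r14b is highest at 6 and 12 h (1974 and 2069), and Ppp2r5d is under the floor at 1, 3 and 18 h.

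Among serine/threonine phosphatases, the PP1 catalytic subunits found among the members, Ppp1cb and Ppp1cc, lay above vehicle, Ppp1cb by only 0.01 on the log2 scale at 3 h. Ppp1cb, the catalytic subunit of myosin phosphatase, had 1314 on vehicle, 1701, 1319.7 and 1392 early, and 1825, 1916 and 1999 late. All 6 DHT arrays lay above vehicle and the 3 late arrays above all early ones. The late-minus-early difference was 0.39 ± 0.11 SE (limma adjusted p = 0.354) and the late-minus-vehicle difference 0.54 ± 0.16 SE (limma adjusted p = 0.311). The smooth muscle markers were higher late than early for 9 of 9 genes, with a list median of 0.56 for late minus early, and their part in the Ppp1cb values was not tested. Ppp1cc, another PP1 catalytic subunit, had 1067 on vehicle, 1185, 1281 and 1599 early, and 1599, 1342 and 1341 late. It too was above vehicle on all 6 arrays, with its highest values at 6 and 12 h, and the phases overlapped (0.08 ± 0.14 SE, limma adjusted p = 0.867).

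The PP1 partners differed among themselves. Ppp1r14b, which encodes an inhibitor of PP1 that can act on myosin phosphatase, had 879 on vehicle, 1125, 1226 and 1974 early, and 2069, 1516 and 1381 late. Every DHT array lay above vehicle, with log2 ratios of 0.36, 0.48, 1.17, 1.23, 0.79 and 0.65 in time order. Because the 6 and 12 h arrays fall in different phases, late minus early was 0.22 ± 0.26 SE (limma adjusted p = 0.798; 0.05 without the 12 h array and 0.47 without the 6 h array), and late minus vehicle was 0.89 ± 0.37 SE (limma adjusted p = 0.442). Ppp1r2, which encodes inhibitor-2 of PP1, had 688 on vehicle, 772, 739 and 702 early, and 519, 557 and 560.4 late. Its early arrays all lay above vehicle and its late arrays all below, at a difference of -0.43 ± 0.09 SE (limma adjusted p = 0.258). The dimmer Ppp1r2 probe set was near the floor (74 to 160) and gave -0.05 ± 0.06 SE.

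Other PP1 partners were chosen after their values were seen. Ppp1r15b, which directs PP1 to the translation factor eIF2 alpha, had 560.3 on vehicle, 556, 821 and 922 early, and 697, 541 and 566 late, so that it was high at 3 to 12 h only. Its stress-induced relative Ppp1r15a had 511 on vehicle and was lower on all 6 DHT arrays, from 409 to 495. The regulatory genes Ppp1r18, Ppp1r21 and Ppp1r7 stayed within 0.42 of vehicle on the log2 scale at every time.

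In the PP2A group the scaffold subunit Ppp2r1a, chosen after its values were seen, had 3322 on vehicle and 3241 to 3651 on the DHT arrays. The catalytic subunit Ppp2cb had 1136 on vehicle and 930.4 to 1132 on the DHT arrays, all below vehicle, with log2 ratios from -0.29 to -0.01. The other catalytic subunit, Ppp2ca, was at the floor except at 6 h (153). Ppp2r1b, the second scaffold subunit, had 179.5 on vehicle, 165, 130.2 and 137 early, and 201, 188 and 256 late. Its early arrays lay below vehicle, 3 and 6 h at the floor, and its late arrays above, so its difference of 0.49 ± 0.13 SE (limma adjusted p = 0.337) is a lower bound. Chosen after their values were seen, the PP2A genes with an array more than 0.6 from vehicle on the log2 scale were Ppp2r2b, lowest at 12 h (903, against 1609.9 on vehicle), Ppp2r5c, highest at 18 h (2151, against 1384), and Ppp2r5d.

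Ppp2r5d, a regulatory subunit of PP2A of the B56 family, had 368 on vehicle, 51, 59 and 190.0 early, and 229.8, 66 and 281 late. All 6 DHT arrays were below vehicle, but the arrays at the floor (1, 3 and 18 h) alternate with those above it, and the vehicle array is the highest of the 7. The log2 ratio at 1, 3 and 18 h was -1.33, a bound, and at 24 h, with matched vehicle, -0.39. The early mean was -1.21 ± 0.37 SE from vehicle (limma adjusted p = 0.657).

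Calcineurin, the calcium-dependent phosphatase that activates NFAT factors, had its catalytic subunit Ppp3ca at 1022 on vehicle, 846, 629 and 624 early, and 662, 590.4 and 865 late. All 6 DHT arrays were below vehicle, least at 1 and 24 h (-0.27 and -0.24 on the log2 scale) and most at 18 h (-0.79). The early and late means lay -0.56 ± 0.28 SE and -0.55 ± 0.28 SE from vehicle (limma adjusted p = 0.874 and 0.503). The catalytic subunit Ppp3cb was near the floor, from 145 to 237, and Ppp3cc was between 106 and 165. The regulatory subunit Ppp3r1 had 1563 on vehicle, 1545, 1817 and 1865 early, and 1525, 1393 and 1407 late, with the early arrays above the late ones (-0.27 ± 0.09 SE, limma adjusted p = 0.426). Rcan1, an inhibitor of calcineurin that NFAT itself induces, lay above vehicle at all 6 times, by 0.39, 1.09, 0.84, 0.83, 0.40 and 0.63 on the log2 scale. The list of calcineurin partners and NFAT factors, which holds Rcan1, had 6 genes that passed, with medians of 0.12 to 0.46 over the 6 times and -0.05 for late minus early, and 0 passed in limma.

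The remaining catalytic subunits had ranges over the 7 arrays of 0.53 (Ppp4c), 0.53 (Ppp5c) and 0.15 (Ppp6c, and 0.95 for its dimmer probe set) on the log2 scale, and 0.53 is also the median of the members. Ppp4c ranged from 1288 to 1857 around a vehicle signal of 1558, with its highest values at 6 and 12 h. Ppp5c, whose product is a partner of the HSP90 chaperone and of steroid receptors, had 188 on vehicle, 154, 179.5 and 209 early, and 222, 221 and 201 late (0.26 ± 0.12 SE, limma adjusted p = 0.545, and 0.15 without the 1 h array). Ppp6c ranged from 566 to 615 on the DHT arrays, each below vehicle (626), while its dimmer probe set ranged from 213 to 413 around 272. Of the Ppm1 genes, chosen after their values were seen, Ppm1g, whose product acts on splicing factors, had 848 on vehicle and was above it on all 6 arrays, up to 1334 at 6 h and 1306 at 12 h. Ppm1a, which dampens stress kinases and Smad signals, was highest at 1 h (689, against 454 on vehicle). The Ppm1b probe sets did not agree in direction against vehicle: the brighter had log2 ratios from -0.31 to 0.35 and the dimmer from -0.65 to -0.11.

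**Figure D3:**
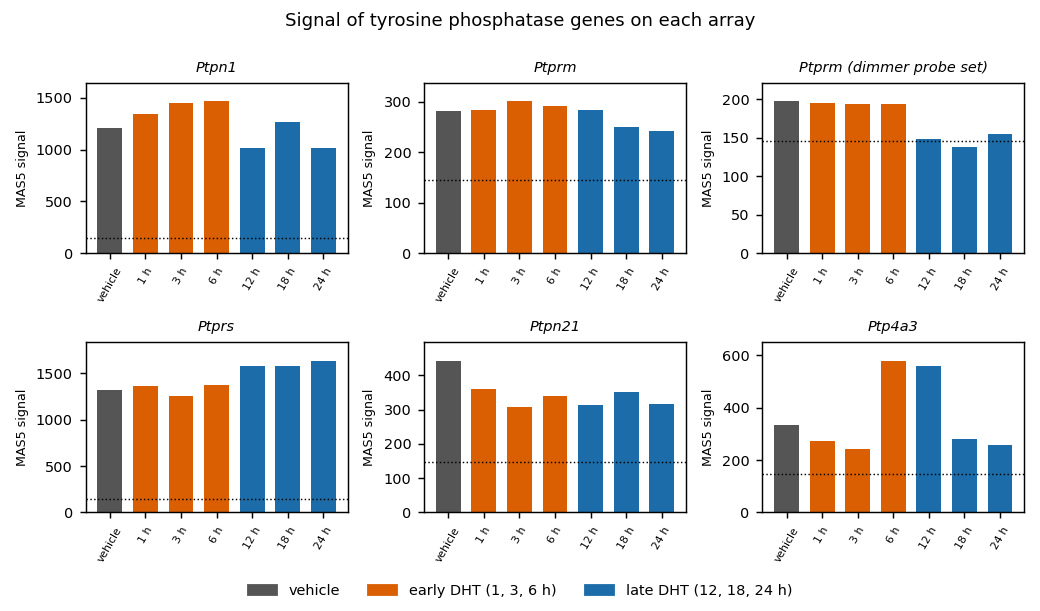
MAS5 signal (vertical axis, linear from 0) of 5 tyrosine phosphatase genes (Ptprm with both probe sets), 1 bar for each array in time order; the dotted line is the floor of 145.9. Ptp4a3 is high at 6 and 12 h alone (579.9 and 558), and the dimmer Ptprm probe set is lower on the 3 late arrays.

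Among tyrosine phosphatases no gene was counted as 2-fold from vehicle at any time, which depended on the floor. With the floor at the 20th percentile, Ptpn12, Ptpn5, Ptpn6 and Ptprv were among those counted at 3 h. At 6 h Ptprn2, Ptpro, Ptprv and Ptprz1 then were. Ptprm, a receptor phosphatase that binds itself between neighbouring cells, had the lowest p of all members for late minus early. Its dimmer probe set had 198 on vehicle, 194.5, 194.0 and 193 early, and 148, 138 and 155 late. The late arrays lay near the floor, 18 h below it, so the difference of -0.38 ± 0.04 SE (limma unadjusted p = 0.000204, adjusted p = 0.174) is a bound. The brighter Ptprm probe set had 282 on vehicle, 284, 302 and 292 early, and 285, 249.9 and 242 late, and gave -0.18 ± 0.11 SE (limma adjusted p = 0.613), with the phases overlapping. Over the 7 arrays, the member genes most like the dimmer Ptprm probe set were Ppp1r2 (Pearson r = 0.95), Ptpru (0.83) and Ptpre (0.80), of 68 compared. For Ppp1r2 they were Dusp11 (0.84), Ptpn1 (0.81) and Ptpre (0.78). These values describe 7 arrays, which share the same scaling and time order. Ptprm and Ppp1r2 were picked for their low p in late minus early and were both lower late, so that choice favoured a likeness between them.

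Ptprs, a receptor phosphatase that binds proteoglycans, had 1316 on vehicle, 1358, 1254 and 1378 early, and 1576, 1582 and 1636 late. The late arrays lay above all others, with a difference of 0.27 ± 0.06 SE (limma adjusted p = 0.295). Ptpn1, which encodes PTP1B, the phosphatase of insulin and leptin receptor signalling, had 1212 on vehicle, 1346, 1456 and 1469.7 early, and 1020.1, 1267 and 1019 late. Its early arrays lay above vehicle and above the late ones (-0.38 ± 0.11 SE, limma adjusted p = 0.354).

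The other tyrosine phosphatase genes described here were chosen after their values were seen. Ptp4a3, a membrane-bound phosphatase linked to cell migration, had 333 on vehicle, 273, 242 and 579.9 early, and 558, 281 and 259 late. The 6 and 12 h arrays were high and the other 4 were below vehicle. Its relative Ptp4a2 was below vehicle (1599) on all 6 arrays, from 1196 to 1542. Ptpn21 had 443 on vehicle and 307 to 361 on the DHT arrays, and Ptpn9 had 1901 on vehicle and 1328 to 1666 on them, both lower at all 6 times. The early and late means of Ptpn21 lay -0.40 ± 0.17 SE and -0.44 ± 0.17 SE from vehicle (limma adjusted p = 0.811 and 0.410). Ptprr, a phosphatase of ERK and p38, had 1521 on vehicle, 1701, 1339.5 and 968 early, and 1071, 1087 and 1422 late, low from 6 to 18 h. The second Ptprr probe set was below the floor on all arrays (0.8 to 7.5).

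Some members, chosen after their values were seen, are known from leukocytes. Ptprc, which encodes CD45 of all leukocytes, was under the floor on all arrays with each of its 3 probe sets, and Ptpn6, the SHP-1 phosphatase of blood cells, was above it at 3 h only (157). Ptpn22 of lymphocytes had 822 on vehicle, 1106, 889.6 and 564 early, and 843, 649 and 869 late, with no order by phase. Its second probe set was below the floor on all arrays (1.7 to 29.0). Ptprcap had 529 on vehicle and 481 to 609.9 on the DHT arrays. The leukocyte markers were lower late than early for 11 of 13 genes, and their part in these values was not tested.

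**Figure D4:**
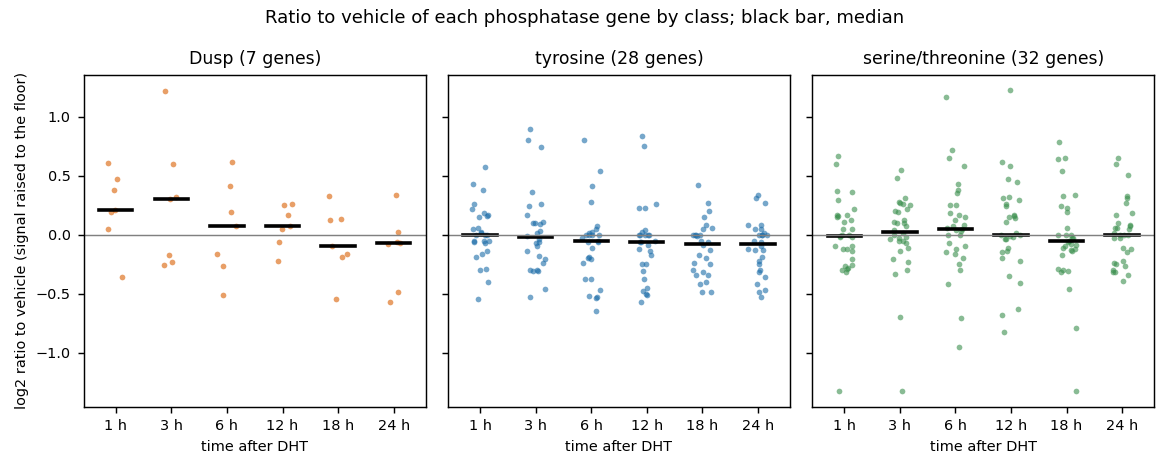
Log2 ratio to vehicle (vertical axis) of each gene at each time after DHT (horizontal axis), for 7 Dusp, 28 tyrosine and 32 serine/threonine phosphatase genes; each point is a gene and the black bar is the class median. The Dusp median is 0.30 at 3 h and -0.10 at 18 h, and the medians of the other classes stay within 0.08 of 0.

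Set side by side, the Dusp genes had the highest class medians at 1 and 3 h. The 7 Dusp genes had median log2 ratios, in time order, of 0.21, 0.30, 0.07, 0.07, -0.10 and -0.07. The 28 tyrosine genes had 0.00, -0.02, -0.05, -0.06, -0.08 and -0.08, and the 32 serine/threonine genes had -0.01, 0.02, 0.05, 0.00, -0.05 and 0.00. The median of all 6326 genes was 0.00 at each time. At 1 h 6 of 7 Dusp genes were above vehicle, against 13 of 28 tyrosine and 14 of 32 serine/threonine genes and 48.1% of all genes. On the 3 h array the numbers were 4 of 7, 13 of 28 and 17 of 32, against 45.7% of all genes. At 24 h the numbers were 2 of 7, 8 of 28 and 15 of 32, against 48.1% of all genes. Of the 7 Dusp genes 5 had their highest signal at 1 or 3 h (28.6% at 1 h and 42.9% at 3 h, against 14.2% and 15.8% of all genes). The difference between classes was not tested, since genes are not replicates of a condition.

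**Figure D5:**
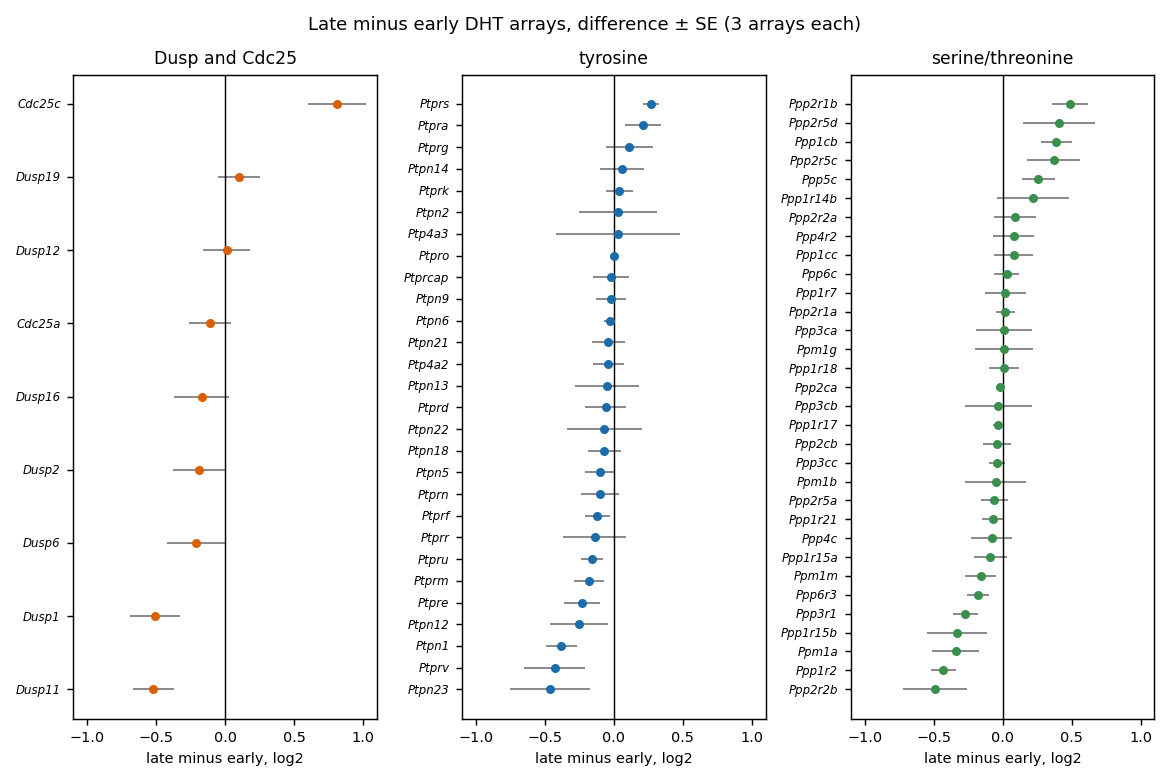
Late minus early difference on the log2 scale (horizontal axis) for each gene that passed, with its SE from limma over 3 arrays a phase, by class (Cdc25 genes beside Dusp genes). Cdc25c (0.81) lies farthest to the right and Dusp11 (-0.52) and Dusp1 (-0.51) farthest to the left.

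For late minus early the median was -0.19 for the Dusp genes (5 of 7 below 0), -0.05 for the tyrosine genes (20 of 28 below 0) and -0.03 for the serine/threonine genes (17 of 32 below 0), against 0.00 and 50.7% below 0 for all genes. The Dusp value rested on single arrays: it was -0.07 without the 1 h array and -0.40 without the 6 h array. The tyrosine value was -0.12 without the 6 h array. Both stayed below 0 without each DHT array in turn. Within the tyrosine class, 10 of 12 non-receptor genes and 8 of 13 receptor genes were lower late. Of these, Ptpn12 and Ptpn6 (non-receptor) and Ptprv (receptor) were above the floor on early arrays only, so their sign was fixed by the filter. The same held for Ppp1r17 and Ppp2ca in the serine/threonine class. The 3 late arrays lay wholly above the early ones for 4 of 69 genes (8.49% of all genes), Cdc25c, Ppp1cb, Ppp2r1b and Ptprs. They lay wholly below for 7 (7.27% of all genes), Dusp1, Dusp11, Ppp1r2, Ppp3r1, Ptpn1, Ptprf and Ptpru. These shares are near those of the whole array.

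Against vehicle, 7 genes lay above it on all 6 DHT arrays (13.5% of all genes): Dusp1, Cdc25c, Ppm1g, Ppp1cb, Ppp1cc, Ppp1r14b and Ptprg. Another 16 lay below it on all 6 (16.3% of all genes), 8 of the 28 tyrosine and 7 of the 32 serine/threonine genes and Dusp12. Such a count rests on the single vehicle array. Ptpro, among the 8 tyrosine genes, was above the floor on vehicle only (152), so its place below vehicle was fixed by the filter. Over the whole course the phosphatase genes varied about as much as others: the median range over the 7 arrays was 0.53 on the log2 scale, against 0.57 for all genes, and 42 of 69 (60.9%) stayed within 1.5-fold, against 52.2%.

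The genes around the Dusp proteins were taken from lists of the MAP kinase pathway. The kinases themselves varied little: of 34 listed, 23 passed, none was 2-fold from vehicle at any time, and list medians lay between -0.02 and 0.08 over the 6 times. Of 20 listed feedback and target genes of the pathway, 15 passed, with early medians of 0.22, 0.47 and -0.10, and 12 of 15 were lower late than early. On the 3 h array 4 of these exceeded vehicle by 2-fold or more (1.23% of all genes): Fos (1.42) and Ier2 (1.31), immediate early genes, Ier3 (1.65) and Errfi1 (1.82), an inhibitor of the EGF receptor. The list was split on that array. Spry4 (-0.09), Spred2 (-0.36), Egr2 (-0.05), Fosb (-0.27), Fosl2 (-0.18), Jun (-0.20) and Etv4 (-0.43) lay below vehicle, and the rest of the 15 lay above it. Jun, another immediate early gene, was 2-fold lower at 18 h (-1.32, with 1.03% of all genes lower). In limma 0 genes of either list passed in any contrast. Of 29 further phosphatases and regulators 17 passed, with medians from -0.06 to 0.05, and 3 h was the time at which Rcan1 (1.09) and Eya3 (a bound of 1.49) were 2-fold higher, 12 h that for Anp32e (1.29). Of 27 tyrosine kinases 20 passed, with medians from -0.20 to -0.03. Fgr was 2-fold lower at 6 h (a bound of -1.22, with 1.14% of all genes lower). In limma 0 genes of these lists passed.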

How the data were processed

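Pooled uterine RNA was hybridised to Affymetrix U74Av2 arrays, 1 for each of 7 groups. The authors deposited linear signal intensity from MAS5 per the submitters' processing notes, with no version given. Tested on the values, the arrays shared a trimmed mean of 500.2 and this scaling was kept. No detection calls were used here. Probe sets were named through the array's gene table: of 12422 without the 66 controls, 10833 named 1 gene. Signals were raised to the 40th percentile, 145.9, and log2 was taken; probe sets above it on no array were left out. limma 3.58.1 in R 4.3.3 compared the phases with a variance trend (residual degrees of freedom 4, prior 1.69), two-sided, adjusted by Benjamini-Hochberg over 8421 probe sets; vehicle, with 1 array, borrows its spread from the DHT arrays. With arrays, their number limits the precision. The fit was tested on simulated data, with independent noise (SD 0.25) and 200 probe sets moved by 2 on the log2 scale. Of these 100% were recovered, and 3.85% of the calls were false. No member differed by as much between phases (0.81 at most), so recovery of changes of the members' size was not tested.

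Members, classes and lists were chosen with earlier results of these data known. Named genes are those at least 2-fold from vehicle at any time with the higher signal at least 291.8, for late minus early the 5 of lowest p either way, all Dusp and Cdc25 genes, the catalytic subunits, genes whose probe sets gave opposite differences at least 0.5 apart, and genes with all 3 early arrays at least 0.2 to 1 side of vehicle and all 3 late arrays at least 0.2 to the other; the last 2 rules found none. Genes chosen otherwise are marked. Promoters came from RefSeq (GRCm38.p6); protein sequences were not used here, so the planned search for the phosphatase signature was not run. Alternatives changed the floor, filter, scaling, fold, trend, probe sets and arrays.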

Additional observations from a re-analysis of the deposited data

How the results depend on the processing

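No paired analysis was possible because each group has 1 array and the labels give no replicate numbers. The count of 0 member calls in limma held for late minus early under all alternatives. With the floor at the 60th percentile 1 member was called for early minus vehicle and 1 for late minus vehicle, Ptpn21 in both. That floor lay above most of the DHT signals of Ptpn21 (307 to 361, against 443 on vehicle), so its ratios there were mostly bounds. Without the filter the counts were 1 (Ptpro) and 2 (Ptpro and Ptprm), and Ptpro was at the floor on all 6 DHT arrays. The counts at least 2-fold from vehicle at 1, 3, 6, 12, 18 and 24 h were 5, 6, 5, 6, 5 and 2 with the floor at the 20th percentile. At 1.5-fold they were 3, 5, 8, 6, 5 and 3, and at 3-fold 0 at each time. With the floor at the 60th percentile they were 0 at 1 h, 1 at 3 h and 0 at 18 h. With quantile normalization 1 gene (Cdc25c) was counted at 24 h. The Cdc25 median of 0.35 for late minus early became -0.03 with the floor at the 60th percentile, which lay above most Cdc25c signals. Leaving out each DHT array in turn, the median ranged from -0.40 to -0.07 for Dusp, from -0.12 to -0.03 for tyrosine, from -0.03 to -0.01 for serine/threonine and from 0.22 to 0.44 for Cdc25 genes. The sign of late minus early turned for 9 named genes near 0 when 1 array was left out. Over these fits Dusp12 ranged from -0.14 to 0.10 (-0.06 without 6 h), Dusp19 from -0.02 to 0.19, Ppp1cc from -0.01 to 0.21 and Ppp2cb from -0.12 to 0.02. Ppp3ca ranged from -0.15 to 0.15 (-0.06 and -0.07 without 3 and 6 h), Ppp3cb from -0.21 to 0.14 (0.13 without 1 h) and Ppp3cc from -0.07 to 0.02. Ppp4c ranged from -0.19 to 0.03 (0.02 without 24 h) and Ppp6c from -0.01 to 0.05. The cause was not tested.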
